A study of Mus musculus with 12 samples.

Results

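The genes described here are 10 members of the feedback and response arm of extracellular signal-regulated kinase (ERK) signalling: Dusp4, Dusp6, Spry1, Spry2, Spry4, Spred1, Spred2, Etv4, Etv5 and Egr1. They were chosen by gene symbol as negative feedback genes and immediate targets of the fibroblast growth factor (FGF) to ERK pathway, a rule that uses no measured value. All 10 symbols are among the 23336 of the count table, and all 10 passed the filter on low counts that left 12814 genes for testing. The libraries came from 3 mouse embryonic stem cell (ESC) lines with 2 libraries in each state: female wild-type (WT) Pgk12.1 cells, female cells with the genotype label RlimKO, and male WT E14 cells. Every sample carries the strain label C57BL/6, and the labels state no other allele, Cre or transgene. Undifferentiated cells were kept in ESC medium with LIF. Differentiated cells spent 3 days as embryoid bodies without LIF, then 6 days in culture at 7.5% oxygen. Sex and genotype were each represented by a single line, so neither can be told apart from other differences between the lines. The labels do not say whether 2 libraries of a group came from separate cultures, so a p-value here measures no more than how far these particular libraries scatter, and that scatter may be technical.

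Growth factor receptors pass their signal through Ras, Raf and MEK to ERK, and active ERK switches on genes that shut the same route down again. Among these are the dual-specificity phosphatases, which remove phosphate from ERK itself, and the Sprouty and Spred proteins, which act upstream between the receptor and Raf. Etv4, Etv5 and Egr1 encode transcription factors that ERK induces, so transcripts of all these genes are commonly read as an output of the pathway. In mouse ESCs the FGF4 that the cells secrete themselves drives ERK and favours the exit from naive pluripotency. Female ESCs with both X chromosomes active have been reported to keep a weaker output of this pathway, and the X-linked genes Dusp9 and Klhl13 have been named in that connection.

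Libraries held 2011919 to 5401940 counts in genes, of which the ribosomal precursor Rn45s took 6.36% (differentiated male replicate 2) to 67.7% (differentiated RlimKO-labelled replicate 1). The 2 differentiated male libraries differed from each other far more than any other pair, with chi-square over degrees of freedom at 24.8 where the others had 1.85 to 2.32, and their marker genes differed too: the summed level of 6 fibroblast markers was 7757 CPM in replicate 1 and 1922 CPM in replicate 2. The titles number the libraries, and differentiated male replicate 2 has a number outside the 2 consecutive runs that hold the other 11. What the numbers stand for is not given in the labels. CPM are counts per 1000000 counts of TMM-scaled library size. Rlim transcripts were present in the libraries labelled RlimKO, at 160 and 150.04 CPM when undifferentiated and at 290.1 and 299 CPM when differentiated, against 258 to 282 CPM in the WT female libraries. Counts summed over a gene do not show whether the part that was deleted was transcribed. The state labels matched the marker genes: all 6 naive pluripotency markers had counts in every group, and their summed level was 1064 to 1278 CPM in undifferentiated and 75.1 to 170.1 CPM in differentiated libraries. Markers of fibroblasts summed to 1.17 to 55.3 CPM before and 1922 to 10170 CPM after differentiation. In bulk samples such as these, fewer cells of a type and less RNA per cell cannot be told apart. Below, a gene is said to rise, fall or differ only where its adjusted p is under 0.05 in a single edgeR model of all 12 libraries. Differences are log2 fold changes ± the standard error (SE), with 2 libraries per group. The SE was derived as the absolute log2 fold change over the square root of F from the edgeR quasi-likelihood test. Where groups are said not to overlap, this is description only. The share of all tested genes that do the same was not counted.

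None of the 10 genes lies on the X chromosome. In the mm10 annotation, the coordinates are chr8:34807297-34819894 for Dusp4, chr10:99263231-99267489 for Dusp6, chr3:37639947-37644598 for Spry1, chr14:105891947-105896819 for Spry2 and chr2:117121374-117182279 for Spred1. Spred2 spans chr11:19924375-20024026, Etv4 chr11:101769742-101785371 and Etv5 chr16:22381309-22439719, and Spry4 and Egr1 both lie on chromosome 18. All are protein-coding. The exons of 9 of them overlap no other annotated exon. Those of Spry1 are overlapped over 24.4% of their length (710 bases) by the antisense gene Gm42922, and because the library type as described does not mark strand, reads from the pair cannot be told apart there.

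Per exon length, the order of the genes turned over between the states. Etv5, an ETS-family transcription factor, was the most abundant of the 10 in each undifferentiated line, at 43.5 CPM per kb of exon in WT females, 38.2 in the RlimKO-labelled cells and 49.4 in males. Its libraries stood clear of the next gene in each case, which reached 11.8 CPM per kb at most in WT females, 17.7 in the RlimKO-labelled cells and 9.65 in males. Behind it in undifferentiated WT females, Spry4 (10.7 and 10.8 CPM per kb) lay within the spread of Etv4 (9.30 and 11.8). By group mean the ERK phosphatases led after differentiation: Dusp4 at 17.97 CPM per kb in WT females and 9.62 in the RlimKO-labelled cells, and Dusp6 at 11.7 in males. In the RlimKO-labelled cells the lead of Dusp4 (8.92 and 10.3 CPM per kb) lay within the spread of Spry2 (5.86 and 8.996). In differentiated males Dusp6 (12.5 and 11.01 CPM per kb) overlapped Dusp4 (7.63 and 11.4), Spry1 (7.66 and 11.02) and Etv5 (4.87 and 12.15). In differentiated male replicate 2, Etv5 was still the highest of the 10. Etv4 was the lowest of the 10 in each differentiated line, at 1.44, 0.624 and 0.768 CPM per kb.

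**Figure D1:**
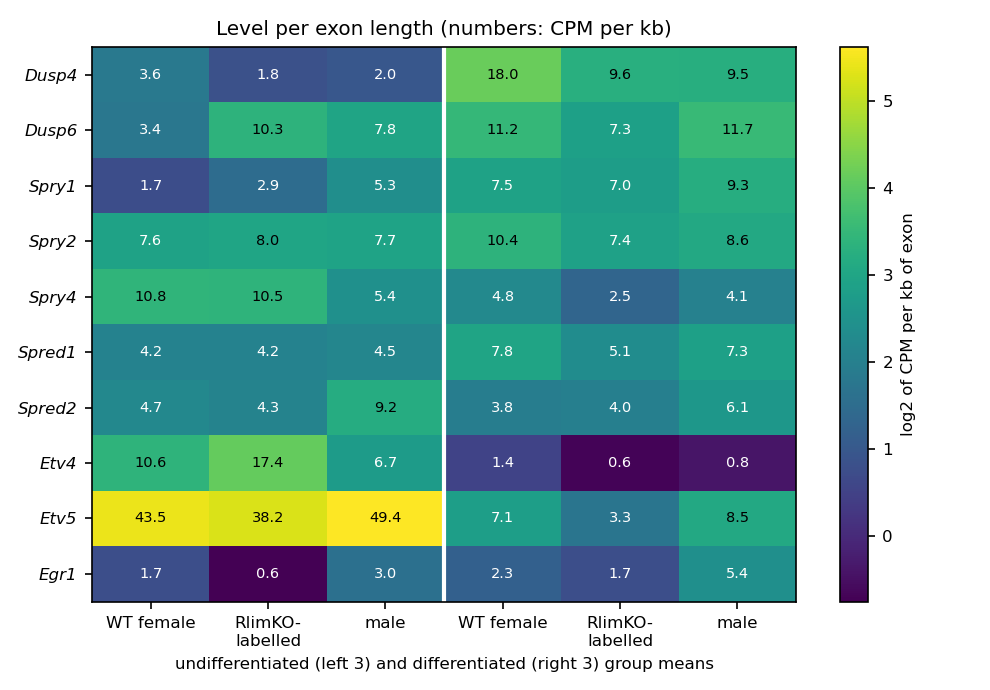
Mean level of each gene in each group of 2 libraries, in CPM per kb of merged exon (numbers in the cells, colour on a log2 scale). Etv5 leads in the 3 undifferentiated columns (38.2 to 49.4 CPM per kb), and Dusp4 or Dusp6 leads in the 3 differentiated columns (9.62 to 17.97).

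The first question was how the 10 genes changed as each line differentiated. They did not move as 1 block. Dusp4 and Spry1 rose and Etv4 and Etv5 fell in each line, while the calls of Dusp6, Spry4 and Spred1 were not shared by all 3 lines and Spry2, Spred2 and Egr1 passed in none. In WT females 4 genes rose (Dusp4, Dusp6, Spry1 and Spred1) and 3 fell (Etv4, Etv5 and Spry4), where 48.7% of all tested genes changed, 26.5% upward and 22.2% downward. In the RlimKO-labelled cells 2 rose and 3 fell where 48.0% of all tested genes changed (26.4% upward, 21.6% downward), and in males 4 rose and 2 fell where 54.0% did (28.7% and 25.4%). These shares are near the backgrounds in each line, so the counts say nothing particular about the 10 genes. The median change was 0.44 in WT females, -0.122 in the RlimKO-labelled cells and 0.388 in males, beside 0.087, 0.0957 and 0.0515 over all tested genes.

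Dusp4, which encodes a nuclear phosphatase of ERK, was the gene that rose to a similar extent in all 3 lines. It went from 10.5 and 9.06 to 48.1 and 50.3 CPM in WT females, from 4.67 and 5.11 to 24.4 and 28.3 CPM in the RlimKO-labelled cells, and from 4.83 and 5.95 to 20.9 and 31.4 CPM in males. Every differentiated library stood above every undifferentiated one. The changes were 2.33 ± 0.27 (5.03-fold, adjusted p = 7.79e-06), 2.43 ± 0.32 (adjusted p = 2.29e-05) and 2.26 ± 0.28 (adjusted p = 8.22e-06).

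Dusp6 encodes the cytoplasmic phosphatase that acts on ERK and is among the most direct transcriptional readouts of FGF signalling. In WT females it rose from 8.93 and 12.4 to 34.1 and 36.3 CPM (1.71 ± 0.25, 3.28-fold, adjusted p = 5.37e-05). In the RlimKO-labelled cells it was 34.4 and 29.8 CPM before and 25.5 and 20.2 CPM after differentiation, with the differentiated libraries lower and no overlap, but the change of -0.51 ± 0.23 did not pass (adjusted p = 0.082). It passed without either differentiated male library, either undifferentiated WT female library or undifferentiated male replicate 1, at adjusted p of 0.0279 to 0.0478. Males went from 23.4 and 25.4 to 39.0 and 34.5 CPM, a rise of 0.58 ± 0.21 (adjusted p = 0.0287) that was not called without undifferentiated male replicate 1 (adjusted p = 0.135) or replicate 2 (0.0898), nor with DESeq2 (0.0619). Dusp6 thus started lowest in the WT female line and ended lowest in the RlimKO-labelled cells.

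The Sprouty genes encode inhibitors that act between receptor and Ras or Raf, and the 3 measured here went separate ways. Spry1 rose in each line. Its libraries were at 3.15 and 6.67, then 22.9 and 20.9 CPM in WT females (2.13 ± 0.37, adjusted p = 0.000249, and 2.72 without undifferentiated WT female replicate 2). The RlimKO-labelled cells went from 9.34 and 7.25 to 23.4 and 17.1 CPM (1.27 ± 0.35, adjusted p = 0.00786), a call lost without differentiated RlimKO-labelled replicate 1 (adjusted p = 0.0561) or undifferentiated RlimKO-labelled replicate 2 (0.127). Males went from 16.7 and 13.9 to 22.3 and 32.0 CPM (0.85 ± 0.29, adjusted p = 0.0216), lost without differentiated male replicate 2 (0.0547) and without undifferentiated male replicate 1 (0.0524) or 2 (0.16). The groups of each line did not overlap, and the lowest starting level, in WT females, was that of 6 and 14 counts.

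Spry4 moved the opposite way to Spry1 in the female lines. It fell from 50.9 and 51.5 to 22.7 and 22.5 CPM in WT females (-1.18 ± 0.20, adjusted p = 0.000242) and from 53.1 and 46.5 to 13.8 and 10.2 CPM in the RlimKO-labelled cells (-2.08 ± 0.23, 4.24-fold, adjusted p = 3.64e-06). In males it started lower, at 26.4 and 25.1 CPM, and stood at 20.4 and 18.7 CPM after differentiation, a change of -0.40 ± 0.20 that did not pass (adjusted p = 0.107). Spry2 changed in no line: its 12 libraries ranged from 10.5 to 23.3 CPM, the groups overlapped in the RlimKO-labelled and male lines, and the changes were 0.47 ± 0.34, -0.11 ± 0.36 and 0.19 ± 0.32 (adjusted p of 0.28 to 0.826).

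The Spred proteins bind the Ras-GTPase activator neurofibromin and bring it to Ras at the membrane. Spred1 rose from 27.3 and 29.6 to 55.6 and 50.1 CPM in WT females (0.89 ± 0.20, adjusted p = 0.00231). In males it went from 25.6 and 35.7 to 49.4 and 50.2 CPM (0.68 ± 0.19, adjusted p = 0.00781), lost without undifferentiated male replicate 1 (0.112). In the RlimKO-labelled cells the libraries were at 31.5 and 26.0 before and 34.0 and 34.6 CPM after (0.26 ± 0.21, adjusted p = 0.327). Spred2 passed in no line, with changes of -0.28 ± 0.28, -0.14 ± 0.29 and -0.59 ± 0.25. The male change was the nearest to the threshold (44.6 and 40.1 to 33.3 and 23.4 CPM, adjusted p = 0.0555) and was called without differentiated male replicate 1 (0.00199). Transcripts of Nf1, the neurofibromin gene, rose in each line, by 1.90 ± 0.15, 1.78 ± 0.16 and 1.07 ± 0.14 (adjusted p at most 1.9e-05).

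Etv4 and Etv5 encode closely related ETS factors that act downstream of FGF receptors, and they showed the largest falls of the 10 genes. Etv4 went from 28.9 and 36.7 to 4.14 and 4.77 CPM in WT females, from 54.9 and 52.9 to 2.66 and 1.22 CPM in the RlimKO-labelled cells, and from 21.2 and 20.3 to 2.30 and 2.47 CPM in males. The falls were -2.88 ± 0.29 (7.36-fold), -4.95 ± 0.35 (30.9-fold) and -3.09 ± 0.30 (8.5-fold), with adjusted p of 1.71e-06, 5.18e-08 and 7.98e-07. The differentiated RlimKO-labelled level rests on 5 counts in each library, and without replicate 2 of that group the fall was -4.32.

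Etv5 fell from 169.6 and 187 to 28.8 and 29.1 CPM in WT females (-2.62 ± 0.30, adjusted p = 6.63e-06). The RlimKO-labelled cells went from 177 and 136 to 11.2 and 15.8 CPM (-3.48 ± 0.34, 11.1-fold, adjusted p = 1.39e-06). In males it went from 209 and 196 to 19.97 and 49.8 CPM (-2.49 ± 0.29, adjusted p = 5.28e-06). The 2 differentiated male libraries lay well apart, and the male fall was -3.28 without replicate 2.

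Egr1, an immediate early zinc-finger factor, passed in no line. Its libraries were at 7.35 and 8.10, then 8.88 and 11.9 CPM in WT females (0.42 ± 0.51). The RlimKO-labelled cells were at 2.34 and 2.98, then 7.97 and 7.32 CPM (1.48 ± 0.65, adjusted p = 0.075), and the change was called without differentiated male replicate 1 (0.00926) or 2 (0.0107). In males the libraries were at 15.6 and 11.5, then 11.02 and 37.2 CPM (0.88 ± 0.42), so that the differentiated male libraries spanned both undifferentiated ones.

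Of the 18 calls on differentiation, 14 held whichever of the 12 libraries was removed: all 7 in WT females, the 4 of Dusp4, Spry4, Etv4 and Etv5 in the RlimKO-labelled cells, and the 3 of Dusp4, Etv4 and Etv5 in males. In a model of the male libraries alone, the male rises of Dusp6, Spry1 and Spred1 were not called (adjusted p of 0.0658 to 0.0901). Naive pluripotency and fibroblast markers moved with these changes over the ranges given above, as did the 7 handling and heat stress genes, all with counts in every group, whose summed level was 181 to 343 CPM before and 114 to 159.9 CPM after differentiation. Their part in the changes was not tested.

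**Figure D2:**
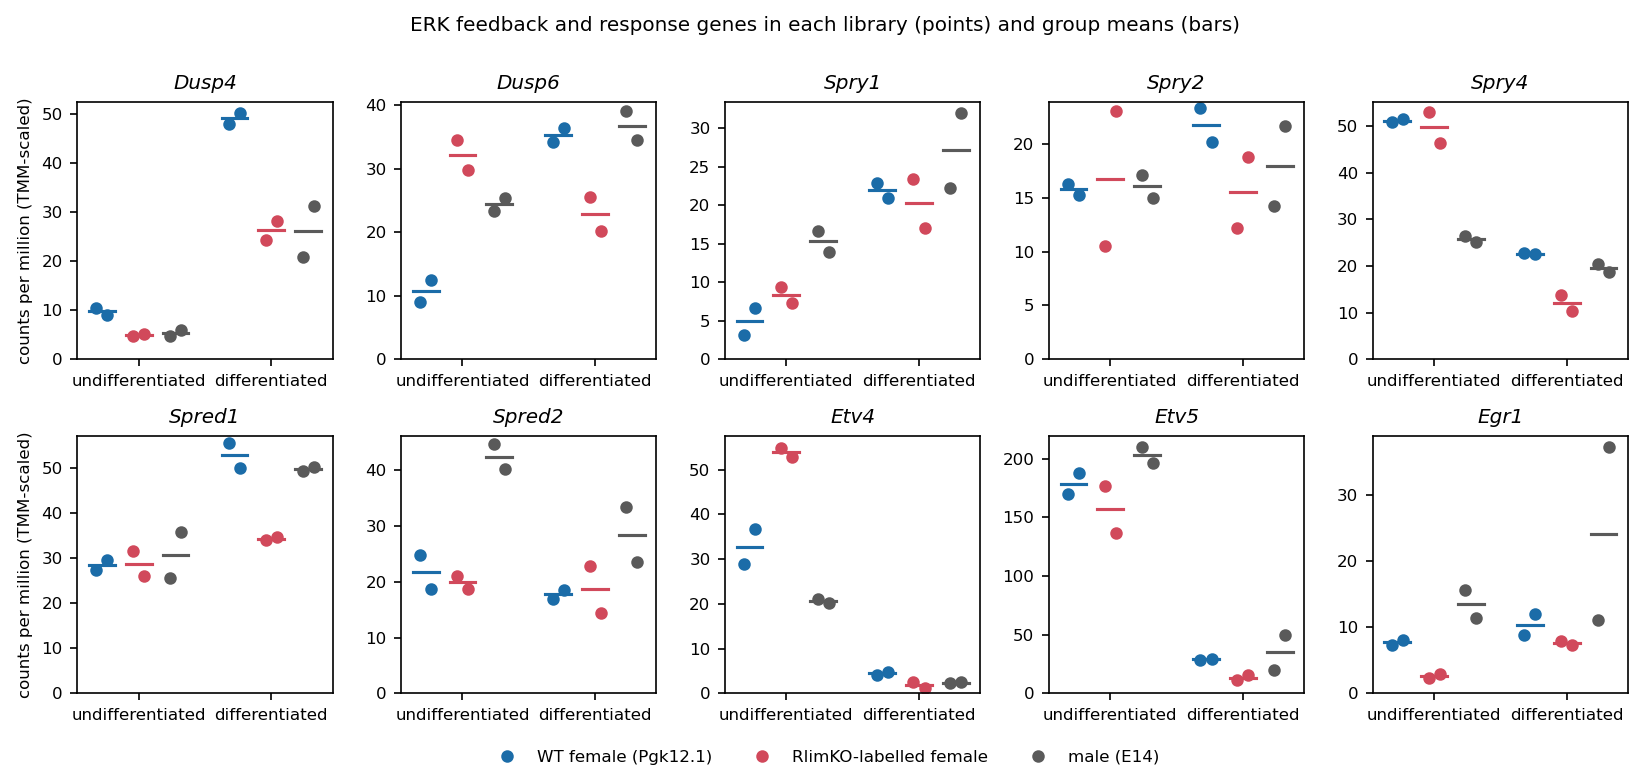
Level of each of the 10 genes in every library, in TMM-scaled CPM. Points are libraries, bars are means of 2 libraries, and colours are lines. Dusp4 is higher in each differentiated library than in any undifferentiated one, Etv4 and Etv5 are lower, and the 2 differentiated male libraries stand apart for Egr1 (11.02 and 37.2 CPM) and Etv5 (19.97 and 49.8 CPM).

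**Figure D3:**
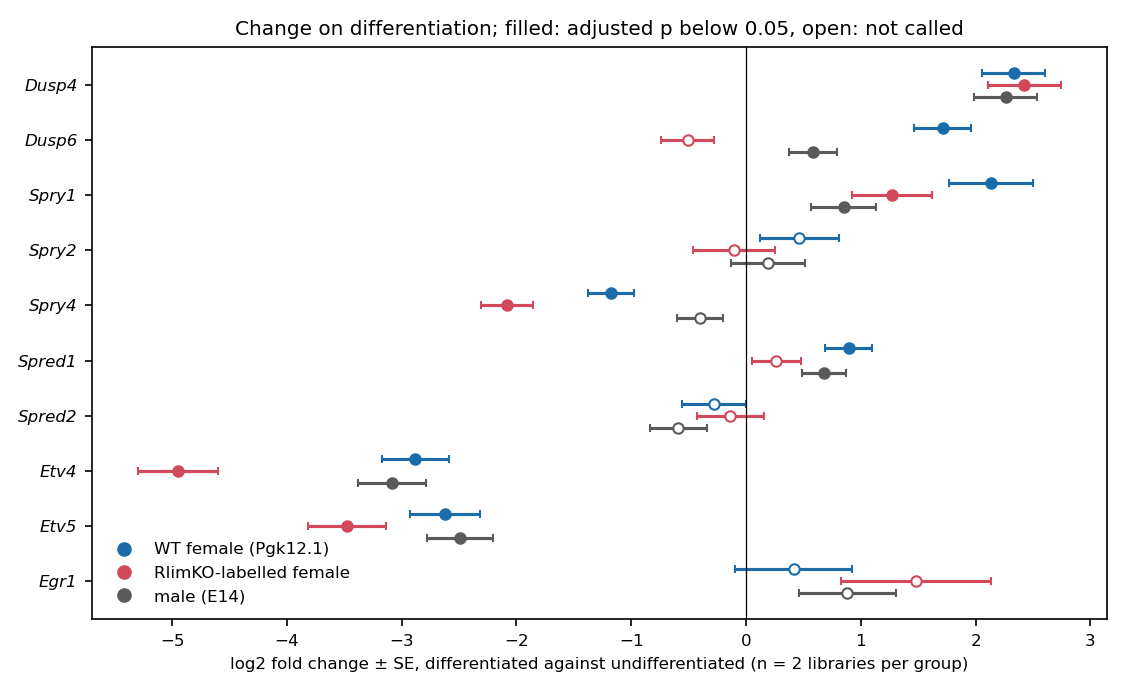
Change of each gene on differentiation in the 3 lines, as log2 fold change with its SE. Filled points have an adjusted p under 0.05. Dusp4 lies between 2.26 and 2.43 in all lines, Dusp6 lies at 1.71, -0.51 and 0.58 in WT female, RlimKO-labelled and male cells, and Etv4 reaches -4.95 in the RlimKO-labelled cells.

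Promoter sequences are shown for the inhibitors that rose in WT females and, beside them, for Spry2, which passed in no line. Windows from RefSeq's promoter table (GRCm38.p6) were used for 6 of the 10 genes. None was used for Dusp4, Etv4, Spry4 and Egr1, so the promoters of these genes were not searched. Each window is the 250 bases before a start site in that table, 5′ to 3′ on the gene's strand: Dusp6 chr10:99262981-99263230 (plus), Spry1 chr3:37639697-37639946 (plus), Spred1 chr2:117120821-117121070 (plus) and Spry2 chr14:105896820-105897069 (minus). The Dusp6, Spry1 and Spry2 windows adjoin the gene starts given above, whereas the Spred1 window ends upstream of the Spred1 start given above and belongs to another start site. Capitals mark GGAA, the core of ETS-factor binding sites, on either strand (TTCC on the strand shown).
Dusp6: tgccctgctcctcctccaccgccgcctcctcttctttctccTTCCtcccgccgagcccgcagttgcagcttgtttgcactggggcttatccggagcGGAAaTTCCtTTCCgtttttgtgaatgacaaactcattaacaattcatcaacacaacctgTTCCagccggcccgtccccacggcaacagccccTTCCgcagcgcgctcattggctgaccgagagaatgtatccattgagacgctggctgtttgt
Spry1: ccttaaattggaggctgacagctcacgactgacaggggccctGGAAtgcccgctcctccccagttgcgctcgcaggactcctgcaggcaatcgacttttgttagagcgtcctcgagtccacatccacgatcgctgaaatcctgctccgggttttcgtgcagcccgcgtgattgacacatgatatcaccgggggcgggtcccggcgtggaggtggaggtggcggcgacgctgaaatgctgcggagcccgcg
Spred1: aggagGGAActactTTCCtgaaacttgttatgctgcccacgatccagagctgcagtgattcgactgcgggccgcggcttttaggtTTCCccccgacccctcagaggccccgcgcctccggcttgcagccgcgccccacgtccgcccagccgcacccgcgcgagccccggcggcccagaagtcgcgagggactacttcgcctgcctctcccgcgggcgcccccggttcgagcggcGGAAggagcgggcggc
Spry2: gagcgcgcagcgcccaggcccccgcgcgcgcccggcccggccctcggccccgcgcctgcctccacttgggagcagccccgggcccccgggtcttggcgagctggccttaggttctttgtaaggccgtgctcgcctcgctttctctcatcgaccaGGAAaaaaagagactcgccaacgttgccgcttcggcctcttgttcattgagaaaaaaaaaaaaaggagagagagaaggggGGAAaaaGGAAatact
The core occurs 6 times in the Dusp6 window, 4 times in Spred1, 3 times in Spry2 and 1 time in Spry1. It is a short motif: 93.4% of the 32817 windows in the table hold it, with a median of 3 matches, and 18% hold 5 or more. Longer motifs were searched on both strands and had no match in the windows of the 6 genes. These were the ETS motif CCGGAAG (in 6.9% of all windows), the AP-1 motif TGANTCA (6.75%), the EGR motif GCGNGGGCG (4.7%), the CRE motif TGACGTCA (1.55%) and the CArG box (1.47%). The GGAA core, which is contained in CCGGAAG, was marked after that search. The windows of Dusp6, Spry1, Spred1 and Spry2 are 56.4%, 62.4%, 70.8% and 62.4% G or C, beside a median of 52.4% over the table.

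Among undifferentiated cells, Dusp6 was the only one of the 10 genes called between WT females and both other lines. WT females had 8.93 and 12.4 CPM of it, RlimKO-labelled cells 34.4 and 29.8 CPM, and males 23.4 and 25.4 CPM, with no overlap between the WT female libraries and any other. It was 2.98-fold higher in the RlimKO-labelled cells than in WT females (1.58 ± 0.26, adjusted p = 0.0321). It was the 1 of the 10 genes called in that comparison, in which 0.242% of all tested genes were. That call was kept without either differentiated male library and was lost without each of the other 10 libraries in turn, at adjusted p of 0.0522 to 0.327. The difference itself stayed between 1.39 and 1.85 over the 12 fits.

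The other genes did not separate the undifferentiated female lines at this threshold. With WT females first, Dusp4 (10.5 and 9.06 against 4.67 and 5.11 CPM) gave -0.98 ± 0.37, Egr1 (7.35 and 8.10 against 2.34 and 2.98 CPM) gave -1.51 ± 0.68, and Etv4 (28.9 and 36.7 against 54.9 and 52.9 CPM) gave 0.71 ± 0.25, with adjusted p of 0.369, 0.484 and 0.321. The Egr1 values rest on 4 and 7 counts in the RlimKO-labelled libraries. Spry1 (3.15 and 6.67 against 9.34 and 7.25 CPM) gave 0.72 ± 0.43 (adjusted p = 0.643). Spry4, Spred1, Spred2, Etv5 and Spry2 gave differences between -0.19 and 0.12. The 5 differences above and 5 below 0 had a median of -0.0186, beside -0.0117 over all genes. The heat stress genes summed to 333.9 to 343.1 CPM in the RlimKO-labelled and 256.0 to 270.4 CPM in the WT female libraries. The 6 fibroblast markers, with Dcn at 0 in the RlimKO-labelled and Lum in the WT female group, summed to 1.17 and 46.9 CPM in the RlimKO-labelled and 5.78 and 7.63 CPM in the WT female libraries. Their part was not tested.

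Against undifferentiated males, WT females differed in 4 of the 10 genes, where 6.63% of all tested genes differed. Dusp6 was lower (-1.19 ± 0.25, adjusted p = 0.0133), as were Spry1 (3.15 and 6.67 against 16.7 and 13.9 CPM, -1.60 ± 0.38, adjusted p = 0.0227) and Spred2 (24.7 and 18.6 against 44.6 and 40.1 CPM, -0.97 ± 0.27, adjusted p = 0.0454). Spry4 was higher (50.9 and 51.5 against 26.4 and 25.1 CPM, 0.99 ± 0.20, adjusted p = 0.0108). The libraries of the groups overlapped for none of these 4 genes. Fibroblast markers summed to 5.78 and 7.63 CPM in the WT female and 55.3 and 35.1 CPM in the male libraries, with Lum at 0 in WT females and all 6 with counts in males. The heat stress genes summed to 256.0 to 270.4 against 181.3 to 198.2 CPM and the naive markers to 1277 to 1278 against 1064 to 1085 CPM, all with counts. Their part was not tested.

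These calls depended on the libraries compared. Dusp6, Spry1 and Spry4 were each lost when any of the 4 libraries of the comparison was left out, with adjusted p of 0.0533 to 0.163 for Dusp6, 0.0518 to 0.231 for Spry1 and 0.0533 to 0.0981 for Spry4. Spred2 was lost in 9 of the 12 fits (0.0507 to 0.306), with DESeq2 (0.0985), with RLE size factors (0.0647) and with Rn45s and Lars2 left out (0.0606). The Spry1 difference was -2.19 without undifferentiated WT female replicate 2. Dusp4 (0.83 ± 0.33) and Etv4 (0.67 ± 0.25) did not pass, and Etv4 was called without differentiated male replicate 1 (0.0188) or 2 (0.0195) and in a model of the 4 libraries compared (0.0153). The median of the 10 was -0.154, beside -0.0836 over all genes.

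The RlimKO-labelled cells differed from undifferentiated males in 4 genes, where 10.0% of all tested genes differed. Etv4 was 2.6-fold higher (54.9 and 52.9 against 21.2 and 20.3 CPM, 1.38 ± 0.25, adjusted p = 0.00331), and this was the 1 call of 15 between lines that was kept in all 12 fits leaving out a library. Spry4 was also higher (0.95 ± 0.20, adjusted p = 0.00984), but not without undifferentiated RlimKO-labelled replicate 1 (0.0537) or undifferentiated male replicate 2 (0.0882). Spred2 was lower (21.0 and 18.8 CPM, -1.09 ± 0.27, adjusted p = 0.0215), a call lost without any of the 4 libraries compared (0.0784 to 0.219). Egr1 was lower by the widest margin (2.34 and 2.98 against 15.6 and 11.5 CPM, -2.29 ± 0.61, adjusted p = 0.0279), and was lost without any of the 4 libraries compared or either undifferentiated WT female library (0.0515 to 0.191). Dusp6 (0.39 ± 0.22) and Spry1 (-0.89 ± 0.35, adjusted p = 0.128) did not pass. The median of the 10 was -0.136, beside -0.111 over all genes. Beside the male marker levels just given, the RlimKO-labelled libraries had 1.17 and 46.9 CPM of fibroblast markers, 333.9 to 343.1 CPM of heat stress genes and 1110 to 1136 CPM of naive markers, and their part was not tested here either.

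**Figure D4:**
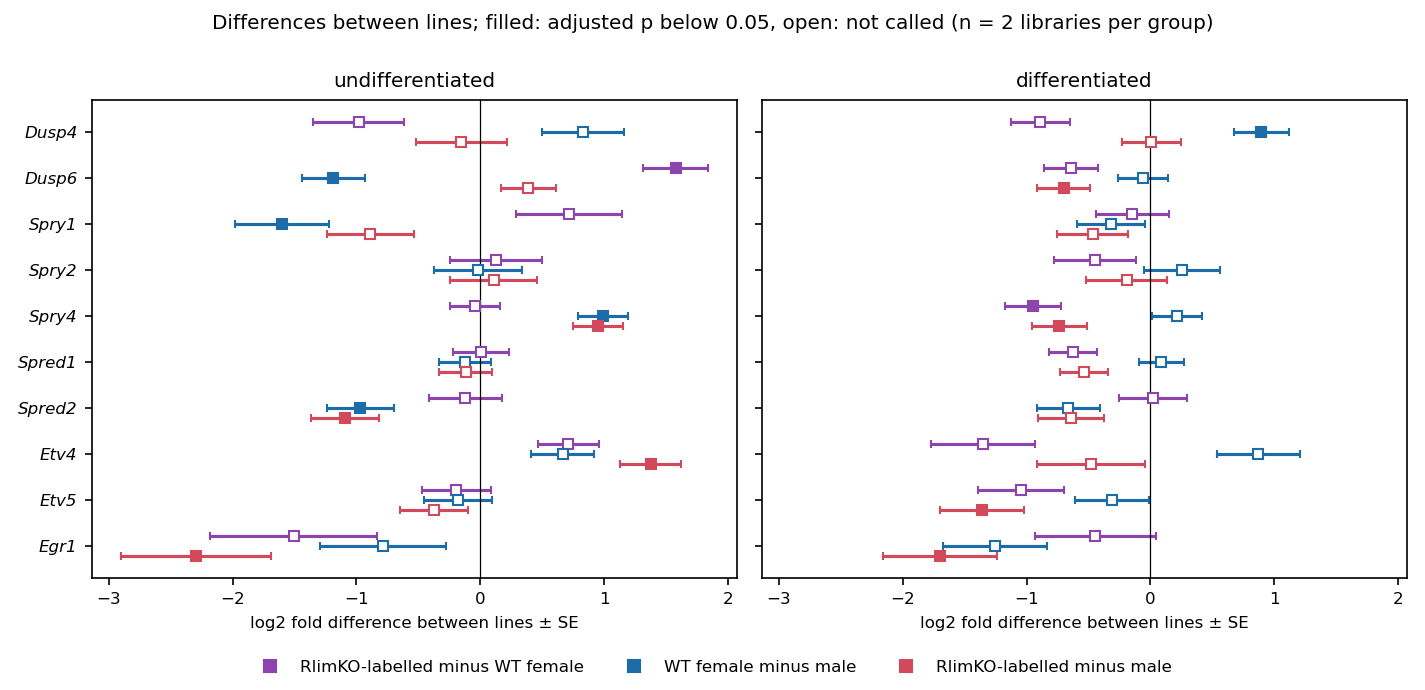
Difference between lines for each gene, as log2 fold difference with its SE, in undifferentiated (left) and differentiated (right) cells. Filled squares have an adjusted p under 0.05. Dusp6 is at 1.58 between the undifferentiated female lines, and 9 of the 10 differences between the differentiated female lines are below 0. Over all 12814 tested genes, 6340 differences between the differentiated female lines are above 0.

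Among differentiated cells, most of the 10 genes stood lower in the RlimKO-labelled cells than in WT females, but only Spry4 passed the test. Spry4 was at 13.8 and 10.2 CPM against 22.7 and 22.5 CPM (-0.95 ± 0.23, 1.93-fold, adjusted p = 0.0366), 1 of 10 genes where 2.59% of all tested genes differed. It was not called without any of the 4 libraries compared or either undifferentiated male library (adjusted p of 0.0506 to 0.487), nor with DESeq2 (0.0806), which called Etv5 lower instead (-1.08, adjusted p = 0.0469). Of the 10 differences, 9 were below 0, with Spred2 the exception at 0.02, and their median was -0.633 beside -0.0035 over all genes. Over all 12814 tested genes, 6340 differences were above 0. The 10 differences come from the same 4 libraries and are not independent of each other.

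Several of the other genes in that comparison were lower in the RlimKO-labelled cells but did not pass. Dusp4 was at 24.4 and 28.3 CPM against 48.1 and 50.3 CPM (-0.89 ± 0.24, adjusted p = 0.0607). Etv5 was at 11.2 and 15.8 against 28.8 and 29.1 CPM (-1.05 ± 0.35), and Spred1 at 34.0 and 34.6 against 55.6 and 50.1 CPM (-0.62 ± 0.20). Dusp6 (25.5 and 20.2 against 34.1 and 36.3 CPM) gave -0.64 ± 0.22, and Etv4 (5 and 5 counts against 21 and 18) gave -1.35 ± 0.42. These 4 had adjusted p of 0.111 to 0.154.

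All 5 were called alongside Spry4 without differentiated male replicate 1 (adjusted p of 5.66e-05 to 0.0439) and without differentiated male replicate 2 (7.27e-05 to 0.0463), so 6 of the 10 genes were lower in those fits, where 7.94% and 7.62% of all tested genes were lower. In a model of the 4 libraries compared, 5 were lower, with Etv4 not among them, where 9.96% of all tested genes were. The male libraries are not part of this comparison and enter it through the estimate of spread that all groups share. Fibroblast markers summed to 9752 to 10170 CPM in the RlimKO-labelled and 6208 to 7423 CPM in the WT female libraries, neuroectoderm markers to 41.4 to 43.9 against 121.9 to 132.5 CPM, endoderm markers to 117 to 138.7 against 232.1 to 232.8 CPM, and naive markers to 88.5 to 105.7 against 161.9 to 170.1 CPM. All 6 fibroblast, 6 endoderm and 6 naive markers had counts in both lines. Sox1 was at 0 in both lines and Neurog1 in the RlimKO-labelled one. Their part in these differences was not tested.

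WT females differed from males after differentiation in 1 gene, where 8.97% of all tested genes differed. Dusp4 was higher (48.1 and 50.3 against 20.9 and 31.4 CPM, 0.90 ± 0.23, adjusted p = 0.0243), a call lost without differentiated WT female replicate 1 (0.139) or 2 (0.194), with DESeq2 (0.0715) and in a model of the 4 libraries compared (0.197). Dusp6, which was lower in WT females before differentiation, was at 34.1 and 36.3 against 39.0 and 34.5 CPM, with overlapping libraries (-0.06 ± 0.20). Egr1 gave -1.25 ± 0.42 (adjusted p = 0.0778), and 1 library set that value: it was -0.095 without differentiated male replicate 2 and was called without replicate 1 (1.04e-08). Spred2 (-0.66 ± 0.25) was called without differentiated male replicate 2 (0.00494). The median of the 10 was 0.0148, beside -0.0172 over all genes.

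The RlimKO-labelled cells differed from differentiated males in 4 genes, all lower, where 11.6% of all tested genes differed and 5.97% were lower. Dusp6 was at 25.5 and 20.2 against 39.0 and 34.5 CPM (-0.70 ± 0.22, adjusted p = 0.0483) and Spry4 at 13.8 and 10.2 against 20.4 and 18.7 CPM (-0.74 ± 0.22, adjusted p = 0.0457). Etv5 was at 11.2 and 15.8 against 19.97 and 49.8 CPM (-1.36 ± 0.34, adjusted p = 0.0195), and Egr1 at 7.97 and 7.32 against 11.02 and 37.2 CPM (-1.70 ± 0.46, adjusted p = 0.0279). No groups overlapped for these 4 genes. The median of the 10 was -0.588, beside -0.0372 over all genes.

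Each of these calls was lost in some fit, and none was made in a model of the 4 libraries compared (adjusted p of 0.215 to 0.269). Without differentiated male replicate 2, Etv5 gave -0.51 (adjusted p = 0.166) and Egr1 -0.57 (0.329), and without replicate 1 Egr1 gave -2.32. Both were also lost without differentiated RlimKO-labelled replicate 1 (0.14 and 0.128) or 2 (0.12 and 0.242). Dusp6 was lost in 8 of the 12 fits (0.0512 to 0.396) and Spry4 in 7 (0.0502 to 0.432), and neither was called by DESeq2 (0.122 and 0.125). Spred1 gained a call without differentiated male replicate 1 (0.02) and Spred2 without replicate 2 (0.00479). Differentiated male replicate 2 also stood apart in blood and endothelium markers (40.7 against 412.8 CPM in replicate 1), endoderm markers (301.7 against 195.6) and naive markers (169.5 against 75.1), 6 genes each, all with counts. Their part was not tested.

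Whether the change on differentiation itself differed between lines was tested as an interaction in the same model. Between the female lines this was so for Dusp6 alone of the 10, where 0.203% of all tested genes passed. Dusp6 rose by 1.71 in WT females and changed by -0.51 in the RlimKO-labelled cells, a difference of -2.22 ± 0.34 (adjusted p = 0.0149). The call was lost without differentiated RlimKO-labelled replicate 1 (adjusted p = 0.0561) or 2 (0.168), differentiated WT female replicate 1 (0.0745) or 2 (0.0658), undifferentiated RlimKO-labelled replicate 1 (0.0673) or undifferentiated WT female replicate 1 (0.0861), while the difference stayed between -2.54 and -2.05 in all 12 fits. Etv4 gave -2.07 ± 0.48 and did not pass (adjusted p = 0.113), but it was called without differentiated male replicate 1 (0.00895) or 2 (0.0101).

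Between the RlimKO-labelled and the male line, Spry4 was the 1 gene of 10 that passed, where 2.61% of all tested genes did. Its falls of 2.08 and 0.40 differed by -1.69 ± 0.30 (adjusted p = 0.012), a call lost without differentiated RlimKO-labelled replicate 2 (0.112) or undifferentiated male replicate 2 (0.0649) and in a model of the libraries of these lines (0.0554). Dusp6 (-1.09 ± 0.31, adjusted p = 0.0807) and Etv4 (-1.86 ± 0.50, adjusted p = 0.0622) did not pass. Without differentiated male replicate 1 or 2, Dusp6 was called (0.00747 and 0.00409), and without replicate 1 so were Etv4 (0.0114) and Etv5 (1.96e-06).

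Between the WT female and the male line none of the 10 passed in edgeR, where 1.39% of all tested genes did, and none passed in DESeq2. At an unadjusted p under 0.05 there were 3, namely Dusp6 (1.13 ± 0.33, adjusted p = 0.102), Spry1 (1.28 ± 0.47, adjusted p = 0.205) and Spry4 (-0.78 ± 0.28, adjusted p = 0.201). Dusp6 was called without differentiated male replicate 1 (0.012) and Spry1 without replicate 2 (0.0229). The 3 differences share the same 12 libraries and are not independent of each other.

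The rest of the pathway was followed in 5 lists of 57 genes, 47 of which were tested. Of 9 FGF ligands and receptors listed, 5 were tested, and on differentiation these gave the same calls in each line. The receptors Fgfr1, Fgfr2 and Fgfr3 rose and the ligands Fgf4 and Fgf15 fell, 5 of 5 tested. Over all tested genes 48.7% changed in WT females, 48.0% in the RlimKO-labelled cells and 54.0% in males. Fgf4, the ligand of ESCs, went from 161 and 170.0 to 11.2 and 10.3 CPM in WT females (-3.93 ± 0.23), from 133 and 132 to 1.06 and 3.17 CPM in the RlimKO-labelled cells (-5.73 ± 0.30) and from 111 and 116 to 3.90 and 6.66 CPM in males (-4.34 ± 0.23). Fgfr2 rose by 3.12 ± 0.34, 3.55 ± 0.38 and 1.95 ± 0.28. Fgfr1 rose by 0.66 ± 0.18, 1.19 ± 0.19 and 1.08 ± 0.18, and the WT female call was lost without undifferentiated WT female replicate 1 (0.0774) or 2 (0.0638) or differentiated WT female replicate 2 (0.0677). Fgf5, a ligand of primed pluripotent cells, was not among the tested genes. It had 0 counts in both female lines when undifferentiated and in the differentiated RlimKO-labelled cells. This allows up to 0.75, 0.739 and 0.501 CPM by counting error alone. Differentiated WT females had 11 and 9 counts of Fgf5, undifferentiated males 5 and 7, and differentiated males 0 and 9.

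Over the 5 lists together 15 of 47 genes rose and 9 fell in WT females, 13 and 10 in the RlimKO-labelled cells and 19 and 7 in males. Taken in either direction, these shares are near the 48.7%, 48.0% and 54.0% of all tested genes that changed, so the totals single out nothing. Upward alone, 26.5%, 26.4% and 28.7% of all tested genes rose. The adaptors and Ras-GTPase activators had 5 of 10 genes higher and 1 lower in WT females and 4 higher and 1 lower in each of the other lines. The lower gene was the docking protein gene Gab1 in each line, and Frs2, which couples FGF receptors to the pathway, was among the higher ones (1.02 ± 0.19, 1.63 ± 0.19 and 1.65 ± 0.18). Of 10 genes of the Ras to ERK kinase cascade, 1 rose in WT females, 2 rose and 1 fell in the RlimKO-labelled cells, and 3 rose and 1 fell in males, each a smaller share than over all tested genes. The scaffold gene Ksr1 rose in each line (1.45 ± 0.37, 1.86 ± 0.38 and 1.72 ± 0.31), and the WT female call was lost without differentiated WT female replicate 1 (0.0561) or undifferentiated WT female replicate 2 (0.0684).

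Among 8 other feedback genes, 1 rose and 3 fell in WT females, 2 fell in the RlimKO-labelled cells, and 1 rose and 2 fell in males. Each share is near or below the 48.7%, 48.0% and 54.0% of all tested genes that changed in these lines. Dusp9, an X-linked ERK phosphatase gene, fell in WT females (-0.92 ± 0.24) and in the RlimKO-labelled cells (-0.80 ± 0.23), the latter not without either differentiated RlimKO-labelled library (0.0667 and 0.0588) or undifferentiated RlimKO-labelled replicate 1 (0.0707). In males it was at 51.6 and 52.0, then 31.7 and 55.7 CPM (-0.22 ± 0.23). Dusp1, which encodes a stress-responsive phosphatase, rose in males (0.72 ± 0.28, adjusted p = 0.0432), a call lost in 6 of the 12 fits leaving out a library (0.0515 to 0.153). Il17rd encodes a receptor-like FGF antagonist. It was lower than in males in both female lines and both states, at -0.97 ± 0.20 and -1.23 ± 0.20 before and -1.30 ± 0.19 and -1.64 ± 0.20 after differentiation for WT females and the RlimKO-labelled cells. The first of these was lost without either undifferentiated male library (0.0602 and 0.0987) or the first WT female one (0.159). Both differentiated calls were lost in a model of the 4 libraries compared (0.117 for WT females and 0.0779 for the RlimKO-labelled cells).

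Of 14 tested ERK-responsive factors and immediate early genes, 5 rose and 3 fell in WT females and 4 rose and 4 fell in the RlimKO-labelled cells. In males 8 rose and 1 fell. Taken in either direction, these shares are near the 48.7%, 48.0% and 54.0% of all tested genes that changed. Upward alone, 26.5%, 26.4% and 28.7% of all tested genes rose, so the 8 of 14 in males were a larger share. The median male change was 1.08, beside 0.0515 over all tested genes. The list as a set was not tested. Fos, an AP-1 subunit gene, was at 0.953 to 2.10 CPM in undifferentiated and 4.93 to 5.56 CPM in differentiated WT females (1.77 ± 0.78, adjusted p = 0.0716). It rose in the RlimKO-labelled cells (0.584 and 0.426 to 10.6 and 11.2 CPM) and in males (1.11 and 2.42 to 11.9 and 43.0 CPM). The undifferentiated Fos levels rest on 4 and 2 counts in WT females, 1 count in each RlimKO-labelled library and 3 and 11 counts in males. The 2 differentiated male libraries differed in Fos and Junb (10.3 and 25.9 CPM) as they did in Egr1, with replicate 2 the higher each time. Ier2, an immediate early gene, fell in the RlimKO-labelled cells (-1.41 ± 0.39, adjusted p = 0.00756), a call lost without replicate 1 of the undifferentiated (0.0584) or replicate 2 of the differentiated libraries (0.128). Myc, a cell growth regulator, was at 4.88 to 12.9 CPM in all libraries and passed in no comparison.

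**Figure D5:**
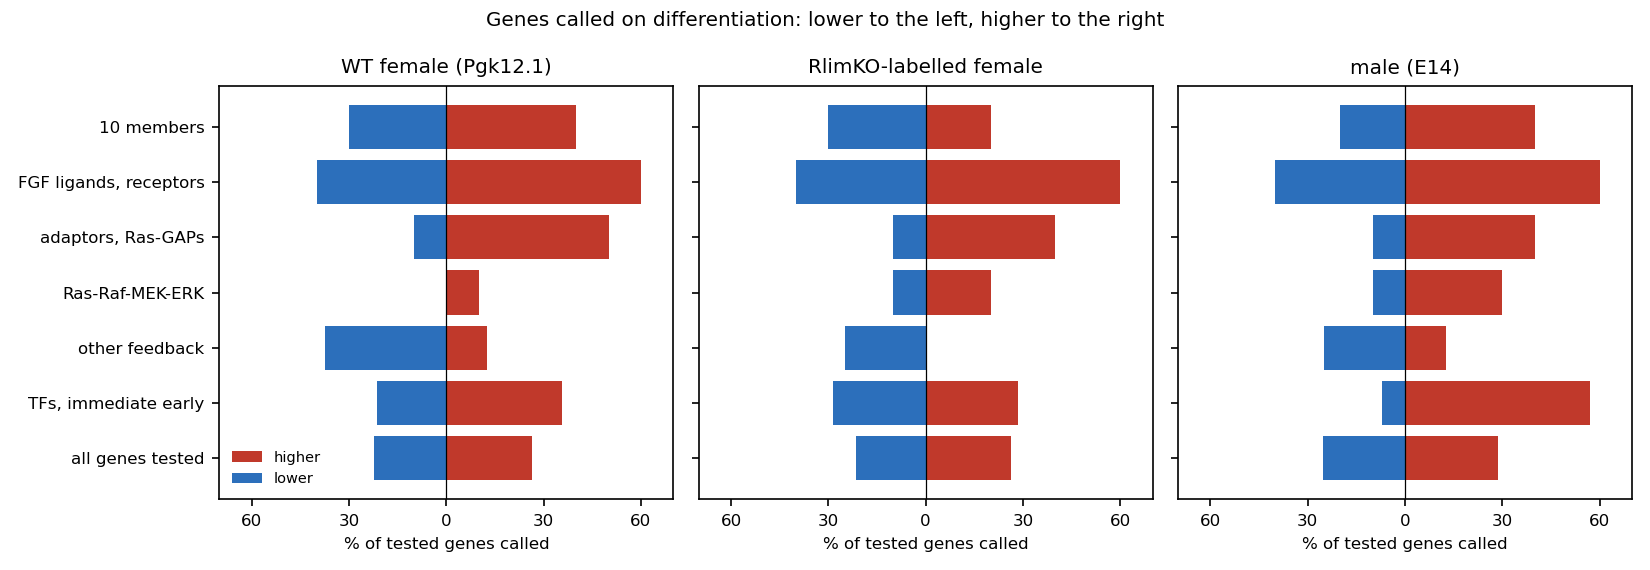
Share of tested genes of each pathway list called lower (left of 0) or higher (right of 0) on differentiation in each line, with the 10 feedback and response genes and all 12814 tested genes for comparison. FGF ligands and receptors have 3 of 5 genes higher and 2 of 5 lower in every line, where 48.7%, 48.0% and 54.0% of all tested genes were called.

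Between the undifferentiated female lines the X-linked gene Klhl13, a ubiquitin ligase adaptor, was the 1 call of 47 pathway genes, where 0.242% of all tested genes were called. It was at 88.7 and 113 CPM in the RlimKO-labelled cells against 280.4 and 248 CPM in WT females (-1.38 ± 0.25, adjusted p = 0.0437), with males at 88.8 and 117 CPM. WT females were thus highest for Klhl13 and lowest for Dusp6 among the undifferentiated lines, and like that of Dusp6 its call was lost in 10 of the 12 fits (0.0794 to 0.389). Dusp9 was at 103 and 76.7 CPM in the RlimKO-labelled cells, 68.3 and 69.6 in WT females and 51.6 and 52.0 in males. Between the differentiated female lines 2 of 47 passed, where 2.59% of all tested genes did: Fgf4 was lower in the RlimKO-labelled cells (-2.12 ± 0.35, adjusted p = 0.0054) and Frs2 higher (0.79 ± 0.17, adjusted p = 0.0236). Fgf4 was not called there without differentiated RlimKO-labelled replicate 1 (0.0611) or 2 (0.0517) or differentiated WT female replicate 1 (0.0643). Frs2 was not called without any of the 4 libraries compared (0.101 to 0.273) or undifferentiated male replicate 1 (0.0527).

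Comparisons with males gave more calls in these lists. Among undifferentiated cells 3 of 47 genes were higher and 5 lower in WT females, where 6.63% of all tested genes differed, and 4 were higher and 5 lower in the RlimKO-labelled cells, where 10.0% did. After differentiation 2 were higher and 8 lower in WT females (8.97% of all tested genes) and 2 higher and 5 lower in the RlimKO-labelled cells (11.6%). Nf1, the neurofibromin gene, was lower in both undifferentiated female lines, at 44.6 and 47.2 CPM in WT females and 41.5 and 51.1 CPM in the RlimKO-labelled cells against 87.7 and 90.4 CPM in males (-0.95 ± 0.16 and -0.93 ± 0.16). Each Nf1 call was lost without 1 library, replicate 1 of the female line compared (0.0577 and 0.0518). Fgfr2 was lower too (-1.34 ± 0.38 and -2.07 ± 0.41), from 3 and 13 counts in the RlimKO-labelled libraries. Its WT female call was lost in 8 of the 12 fits leaving out a library (0.069 to 0.253), with RLE size factors (0.0609) and with Rn45s and Lars2 left out (0.0575). The RlimKO-labelled call was lost without undifferentiated RlimKO-labelled replicate 1 (0.071), and the difference was -3.11 without replicate 2.

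Elk1, an X-linked gene for an ETS factor that ERK phosphorylates, was higher in both undifferentiated female lines than in males (1.26 ± 0.28 and 1.06 ± 0.28), and each call was lost without any of the 4 libraries compared (0.0586 to 0.141). After differentiation Braf, a kinase directly upstream of MEK, was lower in WT females (81.5 and 76.8 against 137 and 264 CPM, -1.35 ± 0.23, adjusted p = 0.00275). The differentiated male libraries lay far apart for Braf: the difference was -0.78 without replicate 2 of that group, still a call. It was lost without differentiated WT female replicate 2 (0.058) and in a model of the 4 libraries compared (0.18).

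Over the 12 libraries the genes fell into patterns that follow the state. These correlations of log2(CPM + 1) are given as a description, since the 12 points share 3 lines, 2 states and their sequencing depth. Etv4 and Etv5 correlated at 0.91, and Spry4 went with Etv4 (0.918) and Etv5 (0.818). Dusp4 went with Spred1 (0.821) and against Etv4 (-0.857) and Etv5 (-0.837), and Spry1 went against Spry4 (-0.803). Dusp6 correlated best with Spry1 (0.741) and only weakly with Dusp4 (0.299), the other phosphatase gene. Spry2 and Spred2 correlated with no other of the 10 beyond 0.406 and -0.467.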

How the data were processed

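RNA of 12 libraries was measured by RNA-seq. The deposited values are whole-number counts of reads per gene that the authors made on mm10. The tools named in the submitters' processing notes are edgeR 3.10.0, HTSeq 0.6.1p1, TopHat2 2.0.12 and bcl2fastq 2.16.0.10. The annotation and the strand setting are not given in the sources used here. Per the labels' protocols, cDNA was made by template switching, amplified, tagmented and amplified again, with no molecular identifier described, so counting error is a lower limit of the error. Summary lines that name no gene (46.4% to 53.9% of a library's reads) were set aside.

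Counts were fitted with edgeR 4.0.16 in R 4.3.3 (TMM scaling, filterByExpr, quasi-likelihood F test, a mean for each of 6 groups, two-sided), with p adjusted by Benjamini and Hochberg over 12814 genes and a threshold of 0.05. The fitting script was tested on simulated data. CPM are counts per 1000000 counts of TMM-scaled library size. Alternatives were RLE size factors, no filter, leaving Rn45s and Lars2 out, DESeq2 1.42.0, a fit of just the libraries compared, a replicate block and each library left out. Leaving out the 2 libraries of extreme Rn45s share was added after seeing the data. Exon lengths came from GENCODE vM21.

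The 10 genes and the pathway and marker lists were chosen with earlier results of these data known. Named with values were all 10 genes, a set of pathway genes, the only called gene of a list, and the genes most like Dusp6 and Egr1.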

Additional observations from a re-analysis of the deposited data

Results flagged for a closer look

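The change of Dusp6 on differentiation differed between the 2 female lines by -2.22 ± 0.34 (log2, RlimKO-labelled minus WT female), by a test of the difference itself (edgeR adjusted p = 0.0149). The means went from 10.7 to 35.2 CPM in WT females and, in RlimKO-labelled cells, from 32.1 to 22.9 CPM, in opposite directions with no overlap of libraries within either line. The change of Spry4 differed between the RlimKO-labelled and the male line by -1.686 ± 0.30 by the same kind of test (adjusted p = 0.012), with means that went from 49.8 to 12.0 CPM and from 25.8 to 19.6 CPM.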

How the results depend on the processing

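With 2 libraries a group and 6 residual degrees of freedom, calls between lines moved with single libraries, and 1 of 15 such calls among the 10 genes was kept in every fit leaving out a library, against 14 of 18 on differentiation. The differentiated male pair, which has the widest spread, enters every test through the shared estimate. The 62 values followed were those of the 10 genes with an unadjusted p under 0.05 in the main fit, of which 35 were calls. Whether a value was called was unchanged for 61 with RLE size factors, 59 without Rn45s and Lars2 and 59 with the replicate block. It was unchanged for 55 with DESeq2, 52 with no filter and 43 in the model of only the libraries compared. Of the 35 calls, these 6 settings lost 1, 1, 1, 6, 2 and 9, in that order. Leaving out the 2 libraries of extreme Rn45s share turned 1 direction, Etv5 in the change of the RlimKO-labelled line minus that of males, from -0.98 to 0.054. Leaving Rn45s and Lars2 out shifted the median of all genes by up to -0.116. The causes of these changes were not tested.

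No label says that shared replicate numbers pair the libraries. The deviations of same-numbered libraries correlated at -0.0663 to 0.103 over 15 pairs of groups. This cannot exclude a pairing, since differences between single libraries also carry counting error. With the replicate block, 2 of the 10 genes in place of 1 were called between the differentiated female lines (Dusp4, adjusted p = 0.0477, joined Spry4), Spred2 gained a call on male differentiation (0.0312), and Dusp6 was lost between the differentiated RlimKO-labelled and male lines (0.0526).

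Counts among the 10 genes moved as follows. For the change of the RlimKO-labelled line minus WT females (1), the model of only the libraries compared gave 4, no filter 2 and leaving out the extreme libraries 2. For RlimKO-labelled minus male (1), these gave 0, 4 and 2, and leaving Rn45s and Lars2 out gave 2. For WT female minus male (0), leaving out the extreme libraries gave 2. Between the differentiated female lines (1) the model of only the libraries compared gave 5, no filter 3 and leaving out the extreme libraries 5. Between differentiated RlimKO-labelled and male cells (4) DESeq2 gave 2 and the model of only the libraries compared 0, and between differentiated WT females and males (1) these gave 0 and 0, with 2 under no filter and 2 without the extreme libraries. The model of only the libraries compared gave 3 in place of 6 on male differentiation and 2 in place of 1 between the undifferentiated female lines.

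Counts over all genes moved too. For the change of the RlimKO-labelled line minus WT females (26), DESeq2 gave 56, the model of only the libraries compared 530, no filter 200 and leaving out the extreme libraries 404. For RlimKO-labelled minus male (334) the last 3 gave 39, 713 and 1311, and for WT female minus male (178) 23, 558 and 1232. Between the differentiated female lines (332) they gave 2154, 779 and 1152. The model of only the libraries compared gave 10 in place of 1489 between differentiated RlimKO-labelled cells and males and 5 in place of 1149 between differentiated WT females and males, where leaving out the extreme libraries gave 2109. Between the undifferentiated female lines (31) DESeq2 gave 70, the model of only the libraries compared 303, no filter 144 and leaving out the extreme libraries 412. The model of only the libraries compared and leaving out the extreme libraries gave 2383 and 2817 between undifferentiated RlimKO-labelled cells and males (1282), and 2016 and 2266 between undifferentiated WT females and males (849).

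Leaving out a library at a time gave these ranges for the 10 genes and for all genes. For changes on differentiation between lines they were 0 to 3 and 2 to 485 (RlimKO-labelled minus WT female), 0 to 4 and 54 to 2016 (RlimKO-labelled minus male), and 0 to 2 and 13 to 1886 (WT female minus male). Between differentiated lines they were 0 to 6 and 12 to 1680 (female lines), 0 to 6 and 272 to 4530 (RlimKO-labelled and male), and 0 to 3 and 186 to 4391 (WT female and male). On differentiation they were 7 to 7 and 4622 to 7665 in WT females, 4 to 7 and 4303 to 7478 in the RlimKO-labelled line, and 3 to 8 and 5032 to 7856 in males. Between undifferentiated lines they were 0 to 1 and 0 to 413 (female lines), 1 to 4 and 310 to 2803 (RlimKO-labelled and male), and 0 to 5 and 167 to 2282 (WT female and male).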

Other observations

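Of 7744 genes with a mean of at least 10 CPM, those whose log2(CPM + 1) over the 12 libraries was most like that of Dusp6 were Egln3 (Pearson r = 0.898), Derl2 (0.872) and Fscn1 (0.849). Those most like Egr1 were F11r (0.919), Atxn10 (0.914) and Smad7 (0.913). The 12 points share lines, states and depth, and no p is given.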
